A study of Homo sapiens with 6 samples.

Results

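The genes described here are the ligands and receptors of the tumour necrosis factor (TNF) superfamily that the deposited table lists. They were chosen by name: every row whose gene name is CD70 or begins with TNFSF or TNFRSF, which gave 4 ligands (CD70, TNFSF4, TNFSF13B and TNFSF15) and 5 receptors (TNFRSF12A, TNFRSF9, TNFRSF8, TNFRSF19 and TNFRSF6B), 9 of the 1630 genes listed. RNA was sequenced from U87MG, an established human glioblastoma cell line, in 6 libraries. The 3 shControl libraries carry a control hairpin RNA and are labelled NC for genotype. The 3 shCREPT libraries carry a hairpin directed at CREPT, the product of the gene RPRD1B, and are labelled as a CREPT knockdown. All 6 come from the same line, and the labels do not give the hairpin sequences or say whether more than 1 was used. The series' design text calls the controls wildtype, while their labels give a control hairpin. The table lists only genes the authors selected for a change, and RPRD1B has no row. The target therefore did not enter that selection or was left out of the table. How far it was reduced was not analysed here, and the listed values do not show the knockdown. The study's title names CREPT's part in proliferation and in immune suppression around the tumour.

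TNF superfamily ligands are trimeric proteins, mostly held in the cell membrane and in some cases cut off as soluble factors. They bind receptors with cysteine-rich outer domains, which recruit TRAF adaptors to switch on NF-kappaB and kinase signalling, or, in receptors with a death domain, caspases. Most members pass signals between T cells, B cells and myeloid cells, and tumour cells, glioblastoma included, can carry some of them, among them CD70 and TNFRSF12A.

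Limits of the table hold for all values below. In the authors' comparison every listed gene had an absolute log2 fold change of at least 1.0009 and an adjusted p-value of at most 0.0497. These limits are read from the listed rows. Every member had thus been selected for the same contrast that is tested here. In a fit across the table with limma on log2(value + 1), 97.9% of the 1184 genes tested passed the threshold of 0.05 after adjustment. Those higher in shCREPT made up 40.6% of the tested genes and those lower 57.3%. All 5 members that entered the fit passed, 4 higher and 1 lower, which on such a background and after that selection is no result about the members. The values are the authors' normalized expression values, whose unit the sources used here do not give, nor the number of reads behind them. Whether they are scaled by transcript length is therefore unknown. Where values of different genes are set side by side below, they are compared by number and not as abundance. The listed values sum to 31893.69 to 33330.8 per library.

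In shCREPT cells the ligand CD70 and the receptors TNFRSF12A, TNFRSF9 and TNFRSF8 rose by 2.16 to 2.70-fold, and the receptor TNFRSF19 fell 5.03-fold. The ligands TNFSF4, TNFSF13B and TNFSF15 and the decoy receptor TNFRSF6B were lower in the mean of shCREPT by 2.58 to 3.83-fold. They missed the filter of the main fit, under which 3 or more libraries must reach 1. TNFRSF9 and TNFRSF8 passed it only through their shCREPT libraries, and TNFRSF19 only through its shControl libraries, in each case the group where the gene is higher. The shControl means of TNFRSF9 and TNFRSF8, 0.947 and 0.993, were by number below those of TNFSF4 (1.1), TNFSF13B (1.64) and TNFRSF6B (1.28). Which members were tested thus depended on the filter. CD70 and TNFRSF12A were at 150.15 or more in every library, while the other 7 members were at 5.38 or less. The directions were therefore split, with 1 ligand higher and 3 lower and with 3 receptors higher and 2 lower. Over all 9 members the median log2 ratio of group means was −1.37, against −1.08 over all listed genes. Over the 5 tested members the median log2(value + 1) change was 0.85, against −0.76 over all tested genes. Few listed genes have a small change, so these medians mainly show which direction holds more genes.

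**Figure D1:**
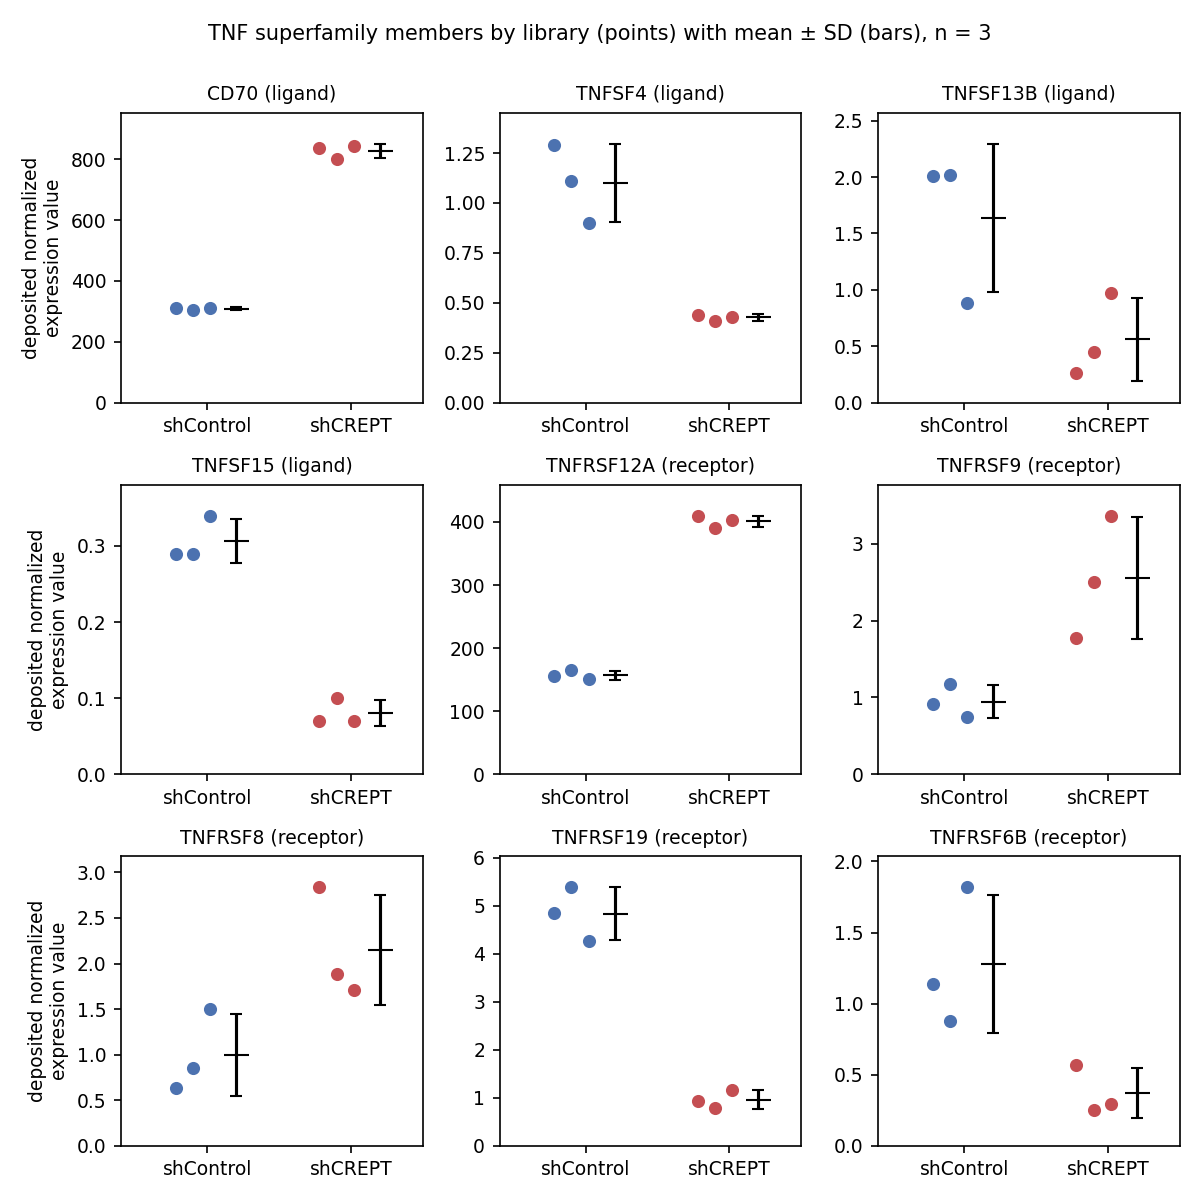
Deposited normalized expression value (linear axis from 0, scaled for each gene) of the 9 members in the 3 shControl and 3 shCREPT libraries; points are libraries, and the horizontal mark with its bar is the mean ± SD (n = 3). The libraries of the groups are apart in every panel but that of TNFSF13B, where 1 shCREPT library, at 0.97, is above 1 shControl library, at 0.88.

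Sequence before the transcription start was read for the members, to show whether those that rose share letters there. RefSeq windows of 300 bases (GRCh38.p14, 250 before a start and 50 from it on) were found for 7 of the 9 members, TNFRSF9, TNFRSF8, TNFSF4, TNFSF15, TNFRSF19, TNFSF13B and TNFRSF6B, with 9 windows because TNFRSF19 and TNFSF13B have a pair of starts. CD70 and TNFRSF12A were without one. Motifs were searched on both strands: the kappaB consensus bound by NF-kappaB, the AP-1 site TGANTCA, the GC box GGGCGG and the TATA box TATAAA. The receptors that rose and have a window are shown first. For TNFRSF9 only the 30 bases around a kappaB match are printed, in capitals (chr1:7940893-7940922, minus strand), since GENCODE places an exon of other TNFRSF9 transcripts there. For TNFRSF8 the 250 bases before its start are printed (chr1:12063053-12063302, plus strand), with a GC box in capitals.
TNFRSF9: agctgtggtGGGAATTTCCCatgagacccc
TNFRSF8: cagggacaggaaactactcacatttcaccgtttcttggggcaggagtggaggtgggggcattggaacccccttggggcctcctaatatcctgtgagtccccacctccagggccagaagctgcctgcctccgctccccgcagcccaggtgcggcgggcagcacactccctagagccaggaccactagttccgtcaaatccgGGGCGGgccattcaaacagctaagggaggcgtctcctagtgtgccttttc

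In TNFRSF9 the capitals hold overlapping kappaB matches, 1 on each strand, from base −74 to base −64 counted back from the start. The kappaB consensus occurred in 5.91% of all 35116 RefSeq windows and in no other window of a member. TNFRSF9 also holds a GC box on the opposite strand, at bases −55 to −50, and an AP-1 match, TGAGTCA, at bases −44 to −38. TNFRSF8 holds the same letters at bases 2 to 8 from its RefSeq start (chr1:12063304-12063310). In GENCODE the gene begins further on, at 12063377, so by that start the letters lie before the gene. By the GENCODE start of TNFRSF9, at 7943165 on the minus strand, all its matches lie inside the gene. AP-1 matches occurred in 7.71% of all windows. None of the 9 windows holds TATAAA, which occurred in 11.5% of all windows. These matches are letters in a window and were not tested for binding.

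TNFRSF19, the receptor that fell, is shown with both of its RefSeq starts because they differ in base composition. The first sequence lies at chr13:23570162-23570369 and the second at chr13:23579110-23579358, both on the plus strand, and the capitals mark GC boxes. Of the 250 bases before each RefSeq start, those inside a GENCODE exon are left out of the print, 42 bases next to the upstream start and 1 next to the downstream one.
TNFRSF19 upstream start: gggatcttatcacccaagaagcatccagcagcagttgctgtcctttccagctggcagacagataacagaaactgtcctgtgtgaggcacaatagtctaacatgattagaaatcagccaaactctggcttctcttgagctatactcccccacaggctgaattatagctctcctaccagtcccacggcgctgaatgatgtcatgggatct
TNFRSF19 downstream start: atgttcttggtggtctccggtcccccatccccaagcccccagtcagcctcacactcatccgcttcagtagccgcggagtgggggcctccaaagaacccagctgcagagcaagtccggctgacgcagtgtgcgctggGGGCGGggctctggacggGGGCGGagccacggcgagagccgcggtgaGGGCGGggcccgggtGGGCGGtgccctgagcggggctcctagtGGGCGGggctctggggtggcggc

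Over all 250 bases, those before the downstream start are 72.4% G or C and hold 20 CG pairs, against 49.6% and 4 for the upstream start, and the median over all windows was 58%. The downstream window holds 5 GC boxes and the upstream one holds none, and 45% of all windows hold at least 1. The table has 1 row per gene, so the values do not tell which start was used. Of the windows not printed, that of TNFSF15 holds an AP-1 match at bases −120 to −114, that of TNFRSF6B holds GC boxes, and those of TNFSF4 and TNFSF13B hold none of the 4 motifs. By its GENCODE start the TNFSF15 match lies inside the gene.

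CD70, among the ligands, binds CD27, a receptor of T and B cells, and its gene lies on chromosome 19 (6583183 to 6604103, GRCh38, minus strand, ENSG00000125726). Its deposited values were 312.39, 305.08 and 310.11 in shControl and 837.51, 800.93 and 842.55 in shCREPT. Every shCREPT library was above every shControl library, and the libraries of a group differed little, with coefficients of variation of 1.21% and 2.75%. The mean went from 309 ± 3.74 to 827 ± 22.7 (SD, n = 3), a 2.67-fold rise. The log2(value + 1) change was 1.42 ± 0.07 (SE; limma adjusted p = 9.18e-06). By size of that change it stood at place 112 among the 481 genes called higher, so many listed genes rose more on that scale.

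TNFSF4, also called OX40 ligand, costimulates T cells through TNFRSF4, and its gene lies on chromosome 1 (173183734 to 173207313, minus strand). Its values were 1.29, 1.11 and 0.9 in shControl and 0.44, 0.41 and 0.43 in shCREPT. The groups do not overlap, and the shCREPT libraries were nearly equal. The means were 1.1 ± 0.195 and 0.427 ± 0.0153 (SD, n = 3), 2.58-fold lower in shCREPT. TNFSF4 missed the filter of the main fit, under which 3 or more libraries must reach 1. In a fit with no filter its log2(value + 1) change was −0.55 ± 0.09 (SE; limma adjusted p = 0.00137). That fit called 37.4% of 1630 genes higher and 54.4% lower.

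TNFSF15, or TL1A, a ligand of the death domain receptor TNFRSF25, lies on chromosome 9 (114784635 to 114806126, minus strand). It was listed at 0.29, 0.29 and 0.34 in shControl and at 0.07, 0.1 and 0.07 in shCREPT. The groups do not overlap, and the mean was 3.83-fold lower in shCREPT, 0.08 ± 0.0173 against 0.307 ± 0.0289 (SD, n = 3). Adding 1 before the logarithm compresses such values, so the change was only −0.27 ± 0.07 on that scale (SE; limma with no filter, adjusted p = 0.0084), while the log2 ratio of group means was −1.94.

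TNFSF13B, known as BAFF, a survival factor of B cells, lies on chromosome 13 (108251240 to 108308484, plus strand). It is the 1 member whose groups overlap. Its values were 2.01, 2.02 and 0.88 in shControl and 0.26, 0.45 and 0.97 in shCREPT, so the third library of each group lay on the other group's side. The means were 1.64 ± 0.655 and 0.56 ± 0.368 (SD, n = 3), with coefficients of variation of 40.0% and 65.6%. With no filter the change was −0.75 ± 0.25 (SE; limma adjusted p = 0.0242), and an exact two-sided permutation test of the libraries gave p = 0.2. The call was lost without shControl replicate 1 (adjusted p = 0.0735), without shControl replicate 2 (0.0784), without shCREPT replicate 1 (0.0779), without shCREPT replicate 2 (0.0711) and in a fit with the replicate block (adjusted p = 0.0624). The authors' deposited table gives it a log2 fold change of −1.21 and an adjusted p of 0.0363.

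Groups did not overlap in 8 of the 9 members, TNFSF13B being the exception, and in 93.3% of all listed genes. For these 8 the exact two-sided permutation test of 3 libraries against 3 gave 0.1, the smallest p that design allows. The labels do not say whether the 3 libraries of a group are separate cultures, so all p-values refer to differences between libraries, whose spread may be technical. The limma SE and p also draw on the variance of the other genes in the fit, so a member's own libraries do not set them alone.

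TNFRSF12A, among the receptors, is the Fn14 receptor of the cytokine TWEAK (TNFSF12), and its gene lies on chromosome 16 (3018445 to 3022383, plus strand, ENSG00000006327). Its values were 155.97, 164.52 and 150.15 in shControl and 408.99, 391.12 and 403.13 in shCREPT. All shCREPT libraries were above all shControl libraries, with coefficients of variation of 4.61% and 2.27%. The mean went from 157 ± 7.23 to 401 ± 9.11 (SD, n = 3), a 2.56-fold rise. The log2(value + 1) change was 1.35 ± 0.08 (SE; limma adjusted p = 1.25e-05). On chromosome 16 the gene overlaps CLDN6 on the opposite strand, and CLDN6 has no row. Its ligand TNFSF12 has no row either.

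TNFRSF9, also known as CD137, is a costimulatory receptor of activated T and NK cells, on chromosome 1 (7915894 to 7943165, minus strand). Its values were 0.91, 1.18 and 0.75 in shControl and 1.78, 2.51 and 3.37 in shCREPT. The highest shControl library was below the lowest shCREPT library, but the shCREPT libraries spread widely, with a coefficient of variation of 31.2%. The mean rose 2.70-fold, from 0.947 ± 0.217 to 2.55 ± 0.796 (SD, n = 3), with a log2(value + 1) change of 0.85 ± 0.18 (SE; limma adjusted p = 0.00316).

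TNFRSF8, or CD30, a receptor of activated lymphocytes and a marker of certain lymphomas, lies on the same chromosome (12063377 to 12144207, plus strand). Its values were 0.63, 0.85 and 1.5 in shControl and 2.84, 1.89 and 1.71 in shCREPT. The groups came close, 1.5 in the third shControl library against 1.71 in the third shCREPT library. The mean rose 2.16-fold, from 0.993 ± 0.452 to 2.15 ± 0.607 (SD, n = 3), and the change of 0.67 ± 0.20 had the largest p among the tested members (SE; limma adjusted p = 0.0154). In the fit with no filter this call was lost without shControl replicate 1 (adjusted p = 0.0547), without shControl replicate 2 (0.0564) and without shCREPT replicate 1 (0.0537), and in the main fit it held with each library left out (adjusted p of 0.00502 to 0.048).

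TNFRSF19, also called TROY, is a receptor of the embryonic nervous system and skin that is a target of Wnt signalling. Its gene lies on chromosome 13 (23570370 to 23676104, plus strand, ENSG00000127863), and its starts are those shown above. Its values were 4.84, 5.38 and 4.27 in shControl and 0.94, 0.78 and 1.16 in shCREPT. The lowest shControl library was well above the highest shCREPT library. The means were 4.83 ± 0.555 and 0.96 ± 0.191 (SD, n = 3), and the log2(value + 1) change was −1.57 ± 0.11 (SE; limma adjusted p = 2.42e-05). The mean fell 5.03-fold. Among the 678 genes called lower it stood at place 123 by size of the log2(value + 1) change, not of the fold.

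TNFRSF6B is decoy receptor DcR3, a soluble protein without a membrane anchor that captures FASLG, TNFSF14 and TNFSF15. Its values were 1.14, 0.88 and 1.82 in shControl and 0.57, 0.25 and 0.29 in shCREPT. The groups do not overlap, while the coefficients of variation were 37.9% and 47.1%. The mean was 3.46-fold lower in shCREPT, from 1.28 ± 0.485 to 0.37 ± 0.174 (SD, n = 3), with a change of −0.72 ± 0.17 in the fit with no filter (SE; limma adjusted p = 0.00719). The gene (chromosome 20, 63696651 to 63698684, plus strand) lies inside the readthrough gene RTEL1-TNFRSF6B, and its end overlaps ARFRP1 on the opposite strand. Neither has a row, and how reads were divided among these genes is uncertain.

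**Figure D2:**
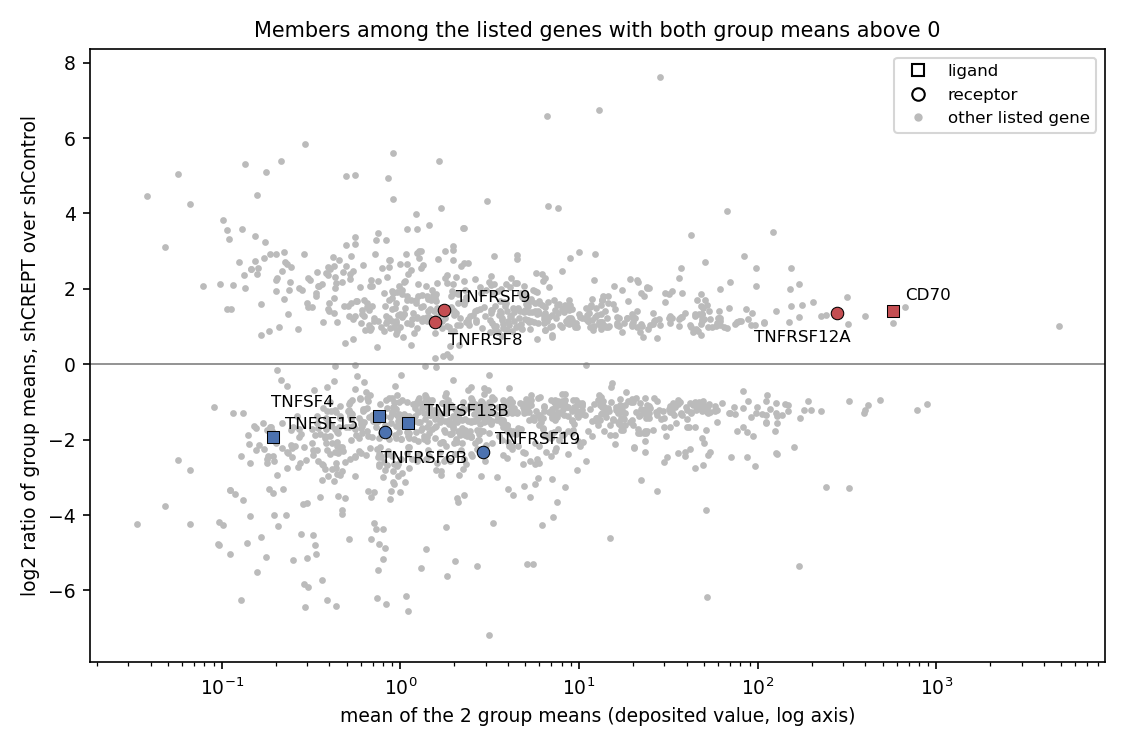
Log2 ratio of group means (shCREPT over shControl) against the mean of both group means (log axis) for 1582 listed genes whose group means are both above 0; grey points are other listed genes, squares are ligands, circles are receptors, red is higher and blue is lower in shCREPT. CD70 and TNFRSF12A lie far to the right with ratios of 1.42 and 1.35. The other 7 members, TNFRSF9 and TNFRSF8 above 0 and 5 below it, lie at values of 4.83 or less in either group mean. Few genes lie near 0, since every listed gene had an absolute log2 fold change of at least 1.0009 in the authors' comparison.

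The scaling of the libraries bears on these changes, since 973 of the listed genes are marked down by the authors and 657 up. A median-of-ratios rescaling over the listed genes raised the shCREPT libraries relative to the controls by 0.88 (log2), and moved the median change of all tested genes from −0.76 to −0.13. Such a rescaling takes most genes as unchanged, while all genes here had been listed for a change. The shift is therefore not a measure of library scale, and calls under it show only how far they depend on scaling. The rescaling called 41.6% of tested genes higher and 31.8% lower. No member turned sign under it or under quantile normalization. CD70 then had a change of 2.29, TNFRSF12A of 2.22, TNFRSF9 of 1.36, TNFRSF8 of 1.16 and TNFRSF19 of −0.98, and all 5 kept their call (limma adjusted p of 1.92e-06 to 0.00133). With no filter, the 4 members that had missed the filter lost their calls under this rescaling. TNFSF4 had −0.19 (limma adjusted p = 0.0817), TNFSF13B −0.33 (0.253), TNFSF15 −0.14 (0.103) and TNFRSF6B −0.36 (0.0951). After quantile normalization with no filter TNFSF4 (adjusted p = 0.0115) and TNFRSF6B (0.0244) passed and TNFSF13B (0.0864) and TNFSF15 (0.0542) did not. CD70, TNFRSF12A, TNFRSF9, TNFRSF8 and TNFRSF19 passed under all 3 scalings. Both rescalings moved the change of every member upward, and the median over all tested genes was −0.52 after quantile normalization. They therefore enlarged the rises and put only the calls of lower members at risk, of which TNFRSF19 kept its call. That the risen members passed is no sign that their calls are firmer.

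**Figure D3:**
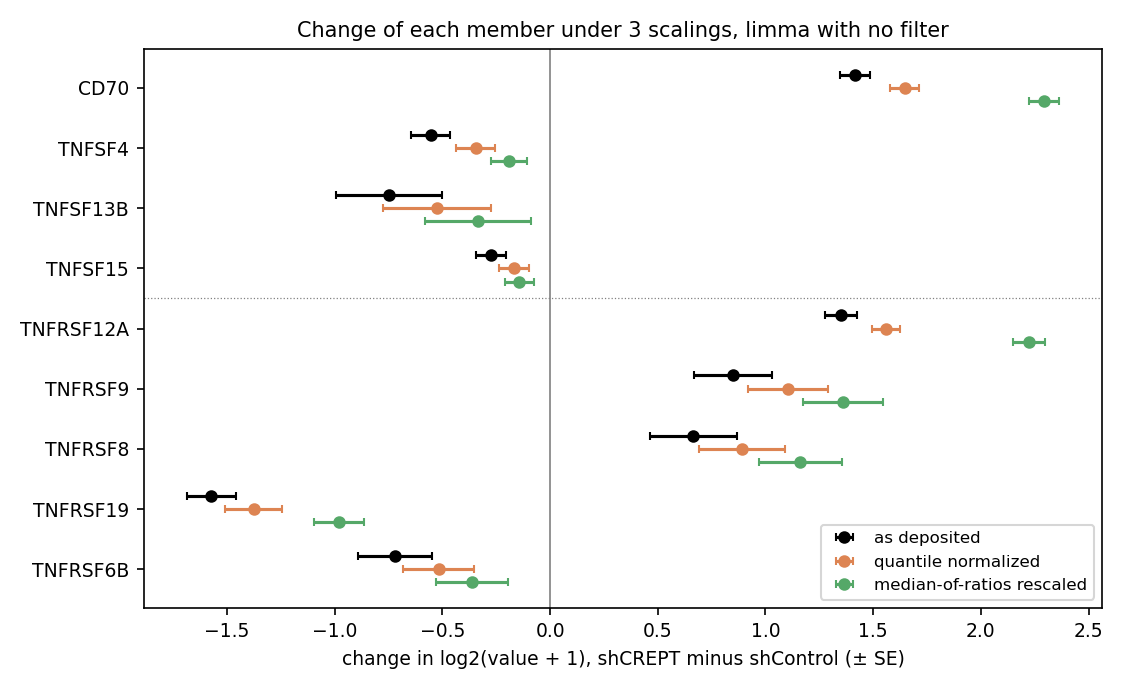
Change in log2(value + 1), shCREPT minus shControl, with its SE (bars) for each member in limma fits with no filter on the values as deposited (black), after quantile normalization (orange) and after median-of-ratios rescaling (green); ligands are above the dotted line and receptors below it. All 9 members stay on their side of 0, CD70 moves from 1.42 to 2.29 and TNFSF4 from −0.55 to −0.19.

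The rest of the superfamily and its signalling gave few rows. Of 18 TNFSF ligands 4 are listed, and of 29 TNFRSF receptors 6 are, the sixth being NGFR, a receptor of neurotrophins whose name does not begin with TNFRSF. NGFR was listed at 0, 0.02 and 0.04 in shControl and at 0.26, 0.13 and 0.21 in shCREPT, and it is named here after its values were seen. Of 13 genes known as ligand or receptor of a member, 11 have no row, among them CD27, TNFRSF4 and TNFSF12. The 2 listed are TNFSF15 and its decoy receptor TNFRSF6B, both lower in shCREPT, and no other member has its partner in the table. A missing row says only that a gene did not enter the authors' selection or was left out of the table, not that it is absent from the cells.

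None of 34 adaptors and death signalling genes, such as TRAF2, RIPK1 and CASP8, none of 14 NF-kappaB subunits and inhibitors, such as NFKB1 and RELA, and none of 6 sheddases and processing factors, such as ADAM17, has a row. Of 26 genes fixed as NF-kappaB targets 6 have a row, and all 6 passed, 2 higher and 4 lower in shCREPT, against 40.6% and 57.3% of all tested genes. PLAU, the urokinase protease, rose 2.41-fold and the chemokine CXCL8 rose 2.07-fold, while the chemokine CXCL10 fell 2.12-fold and TNFAIP6, a hyaluronan-binding protein, fell 3.96-fold (limma adjusted p of 2.1e-05 to 9.09e-05). VCAM1, an adhesion molecule, and PTGS2, a prostaglandin synthase, fell as well and are named after their values were seen.

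**Figure D4:**
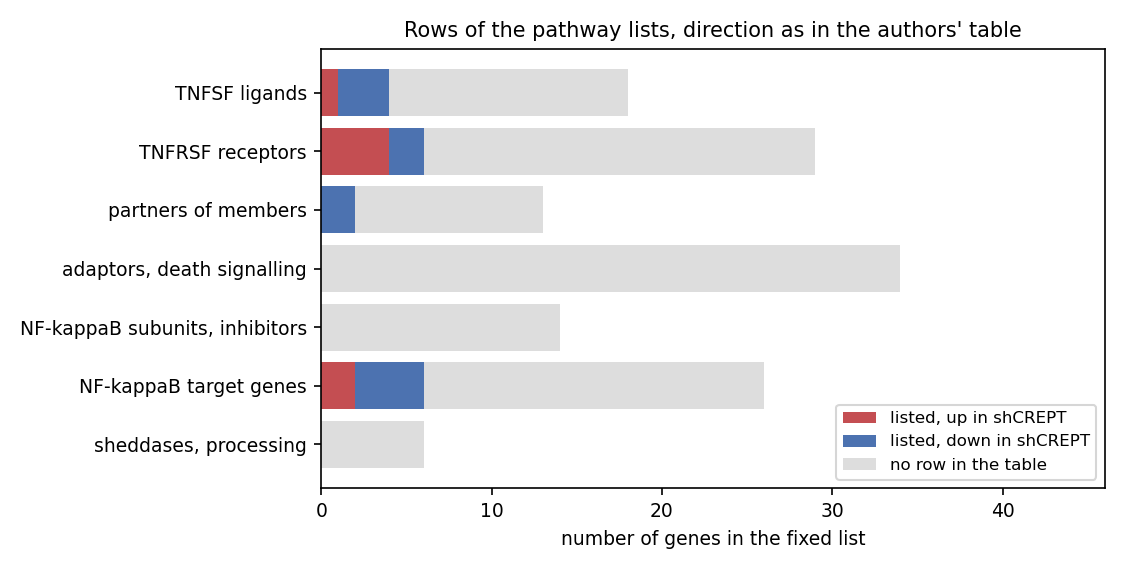
Number of genes in each fixed list (horizontal axis) that the table lists as up (red) or down (blue) in shCREPT by the authors' mark, or that have no row (grey). Of the ligands 1 is up and 3 are down, of the receptors 4 are up and 2 down, and the lists of adaptors, of NF-kappaB subunits and of sheddases have no row at all.

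The genes whose pattern over the 6 libraries was most like that of CD70, by the root mean square difference of log2(value + 1) profiles centred on each gene's own mean, were the mitotic kinase AURKB (0.035), the class I antigen HLA-B (0.050) and the replication factor MCM10 (0.053). For TNFRSF12A they were TMEM132A (0.030), AURKB (0.036) and LY6E (0.056). CD70 was at place 4 in likeness to TNFRSF12A (0.058), and TNFRSF12A at place 5 in likeness to CD70. These profiles are set mainly by the difference between groups, on which the table was selected, and are given as a description.

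Genes near the members were looked up within 500 kb (GENCODE release 29). CD70, TNFSF13B, TNFRSF8, TNFRSF9 and TNFRSF19 have no listed gene in that range. The family members that lie beside them, TNFSF9 and TNFSF14 beside CD70, TNFSF18 beside TNFSF4, TNFSF8 beside TNFSF15 and TNFRSF1B beside TNFRSF8, have no row. Around TNFRSF12A 6 of 47 protein-coding genes are listed, 1 higher and 5 lower in the mean of shCREPT. PKMYT1, a kinase at 37.9 kb, rose 2.41-fold, and PRSS27, a protease at 298 kb, fell 3.20-fold. KREMEN2, MEFV and PRSS33 were lower in shCREPT at values too low for the main fit. CEMP1 missed that fit as well, and its groups overlap. Its values were 0.95, 0.9 and 1.53 in shControl and 0.12, 1.71 and 0 in shCREPT (limma with no filter, adjusted p = 0.208). Around TNFRSF6B 3 of 39 are listed. EEF1A2 at 197 kb rose 3.47-fold, while OPRL1 at 381 kb and C20orf204 at 336 kb had means 3.12-fold and 3.10-fold lower in shCREPT, like TNFRSF6B, at values too low for the main fit. Around TNFSF15, lower in shCREPT, the 2 listed of 12 are WHRN and AKNA, which rose 1.89-fold and 1.91-fold. The 1 listed of 6 around TNFSF4 is ANKRD45, with overlapping groups and a mean 2.09-fold lower in shCREPT. These neighbours are named after their values were seen.

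Members of this family are mostly known from lymphocytes and myeloid cells, so markers of those cells were looked for. None of 10 myeloid, 9 T and NK cell and 6 B and plasma cell markers has a row, which does not tell their level. Of 10 markers of glioblastoma and astrocytes 3 are listed, GFAP, S100B and SLC1A3, and all 3 fell, as did the other 3 listed markers below, in a table where 57.3% of tested genes were called lower and the authors mark 59.7% of listed genes as down. Their summed value was 498 to 529 per library in shControl and 72.5 to 88.9 in shCREPT. Most of that sum is GFAP, whose mean fell 9.53-fold, from 433.6 to 45.5, while SLC1A3 fell 2.15-fold, from 78.4 to 36.5, and S100B had a mean of 2.68 in shControl. The 2 listed of 5 endothelial markers, KDR and CDH5, summed to 43.3 to 45.3 and 11.6 to 13.7, and the 1 listed of 5 fibroblast markers, COL1A2, was at 1084 to 1099 and 432 to 492. S100B was listed at 0 in the second shCREPT library, and the other 5 listed markers were above 0 in every library. Their part in the members' values was not tested. By the labels all 6 libraries are of the U87MG line, so a listed endothelial or fibroblast marker does not show that such cells were present. Fewer cells of a kind and less RNA per cell cannot be told apart in bulk RNA.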

How the data were processed

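RNA of 6 U87MG libraries (3 shControl, 3 shCREPT; column-kit RNA, NEBNext Ultra libraries, per the labels' protocols) was analysed from 1 table of 1630 genes. HISAT2, HTSeq and GRCh38 are named, without version or role, per the submitters' processing notes. Per the file headers, the table holds a normalized signal for each library and the authors' comparison (fold change as linear ratio and as log2, p-value raw and adjusted). The normalization, the test and the strand setting are not given in the sources used here, and depth is unknown, so no count test was run.

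Values were compared as log2(value + 1) with limma 3.58.1 (R 4.3.3), for 1184 genes with at least 1 in at least 3 libraries (446 left out), with Benjamini-Hochberg adjustment over all tested genes and a threshold of 0.05. This scale understates changes of low genes, so ratios of means are given too. The limma step was tested on simulated data in which most genes were unchanged, unlike the genes listed here, so that test gives no error rate for them. The design written for a table of all genes was kept. Exact permutation tests and lookups used Python 3.11.15 with scipy 1.17.1 and pandas 2.3.3. Positions are GENCODE release 29 on GRCh38, and promoter windows are RefSeq on GRCh38.p14.

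Members and gene lists were chosen with earlier results of these data known. Named genes are all 9 members, up to 4 genes per list with the smallest adjusted p, and the 3 genes with profiles most like those of the ligand and the receptor with the largest mean deposited value, a choice by number and not by abundance, since the unit is unknown. Alternatives were pseudocounts of 0.1 and 5, no filter, a minimum of 10, median-of-ratios and quantile scaling, limma's trend and robust options, the replicate block and each library left out. No filter combined with scaling, block or a left-out library was added after the data were seen.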

Additional observations from a re-analysis of the deposited data

How the results depend on the processing

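No change of a member turned sign under any setting run. Of members called, 4 were higher and 1 lower in the main fit. A minimum of 10 in 3 libraries left CD70 and TNFRSF12A as the only members tested, so 2 were higher and 0 lower (214 higher and 271 lower over all genes). With no filter the 4 members that had missed the filter entered, and 5 members were lower. The count was 3 lower with no filter and quantile normalization, and 4 lower with no filter and the replicate block. Leaving out 1 library gave 4 members higher and 1 lower each time in the main fit and, with no filter, 3 to 4 higher, 3 where TNFRSF8 lost its call, and 4 to 5 lower, 4 where TNFSF13B lost its call. In the main fit it gave 475 to 481 genes higher and 662 to 672 lower in the main fit. Median-of-ratios rescaling called 377 genes lower in place of 678. Libraries that share a number showed no common deviation (r = −0.109, 0.018 and −0.179), so the numbers were not taken as pairs; the replicate block called 479 genes higher and 677 lower and the same 5 members, with adjusted p = 0.0414 for TNFRSF8. Changes of low members depend on the pseudocount: TNFSF15 had −1.18 with 0.1 and −0.06 with 5. Depth is unknown and gives no bound.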
